A study of Homo sapiens with 5 samples.

Results

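The step from week 2 to week 4 was followed in the human embryonic stem cell line H9, which is established and widely used, on the way to cells that resemble corneal epithelium, the clear surface layer of the eye. The 2 arrays compared are those whose labels give week 4 and week 2 of differentiation, out of 5 arrays in the series, and all measured genes were compared. Week 4 cells and week 2 cells were both labelled as differentiating H9 cells, with no genotype change and no agent named beyond E6, a defined medium that was replaced every day in all groups. The remaining arrays are undifferentiated H9 at week 0 and differentiating H9 cells at weeks 6 and 8, and they serve here to show where a week 4 value lies in the course. Each week is 1 sample of RNA from a whole culture on 1 Illumina HT-12 bead array, so no difference has a replicate check, an error or a test. The labels do not say whether the weeks were taken from the same culture. Where a transcript was lower, fewer cells of a type and less RNA per cell cannot be told apart.

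Of 20045 genes with a named probe, 11700 were above background at week 4 or week 2 and entered the comparison. Above background means a detection p-value under 0.01, which sets a probe's signal against the array's negative controls. Of the 11700 genes, 10026 were above background on both arrays, 901 at week 4 alone and 773 at week 2 alone. The week 4 array had 17424 probes above background and the week 2 array 17263, within the range of 16993 to 18358 over the 5 arrays. Levels are normalized log2 intensities, which order the arrays for 1 probe but not the genes among themselves. A gene is called higher or lower where the arrays differed by at least 2-fold and the brighter was above background. Where the dimmer reading was below background, the true fold may be larger, and the words at least stand before it.

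Corneal epithelium, lens, neural retina and pigment epithelium all belong to the eye, but they come from different parts of the embryonic ectoderm. The surface ectoderm gives lens and corneal epithelium, the neural plate gives forebrain and retina, and the neural crest between them gives sensory ganglia, glia, pigment cells and much of the corneal stroma. PAX6 works in surface ectoderm and neural eye field alike, while LHX2, SIX3 and RAX mark the neural eye field and SOX10 the crest. MicroRNAs of the miR-9 family are made by neural progenitors. The let-7 family accumulates as embryonic cells mature, and its processing is blocked by the protein LIN28A. Many cultures that lose pluripotency pass through several of these fates side by side.

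The miR-9 host transcripts MIR9-1HG and MIR9-2HG were among the 12 largest bounds upward. The mature sequences carried by these and by the other called hosts described below are shown first. The array measured the long host transcripts and not the mature microRNAs. Sequences and coordinates are those of RefSeq on GRCh38.p14, each lies inside its host's annotation on the minus strand, and capitals mark the seed, bases 2 to 8, which pairs with target RNAs. The 7 loci give 6 distinct mature sequences and 5 seeds. These 2 miR-9 hosts give the same mature RNA, from chr1:156420392-156420414 for MIR9-1HG and chr5:88666902-88666924 for MIR9-2HG. MIR100HG holds miR-100 at chr11:122152275-122152296, let-7a at chr11:122146568-122146589 and miR-125b at chr11:122099809-122099830. MIR29B2CHG holds miR-29b at chr1:207802450-207802472 and miR-29c at chr1:207801865-207801886, which share a seed.
hsa-miR-9-5p: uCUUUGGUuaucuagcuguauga
hsa-miR-100-5p: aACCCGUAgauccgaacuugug
hsa-let-7a-5p: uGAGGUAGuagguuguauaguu
hsa-miR-125b-5p: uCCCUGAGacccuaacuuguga
hsa-miR-29b-3p: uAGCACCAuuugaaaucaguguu
hsa-miR-29c-3p: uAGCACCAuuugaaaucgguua

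The step moved 851 genes up and 630 down at week 4 against week 2. That is 7.27% and 5.38% of all measured genes, or 12.7% together. The counts in each gene list below are to be read against 7.27% higher and 5.38% lower. Past 4-fold there were 203 higher and 113 lower genes, 1.74% and 0.966% of the measured genes. Of the higher genes 654 were measured on both arrays and 197 are bounds, and of the lower genes 470 were measured on both and 160 are bounds. The median difference over all genes was -0.02 on the log2 scale, with quartiles of -0.37 and 0.35. Near the limit of a call, 256 genes differed by 1 to 1.1 on the log2 scale in either direction and 340 by 0.9 to 1, so the counts depend on where the limit is set. Without background correction the counts were 401 higher and 219 lower, and on the authors' processed intensities 420 and 238. The first step, week 2 against week 0, had 1244 higher genes (10.6%) and 1085 lower (9.29%). Week 6 against week 4 had 731 (6.24%) and 500 (4.27%), and week 8 against week 6 had 230 (1.93%) and 129 (1.08%). The median size of a difference over genes above background on both arrays of a step followed the same order, at 0.46, 0.36, 0.34 and 0.23 on the log2 scale from the first step to the last.

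**Figure D1:**
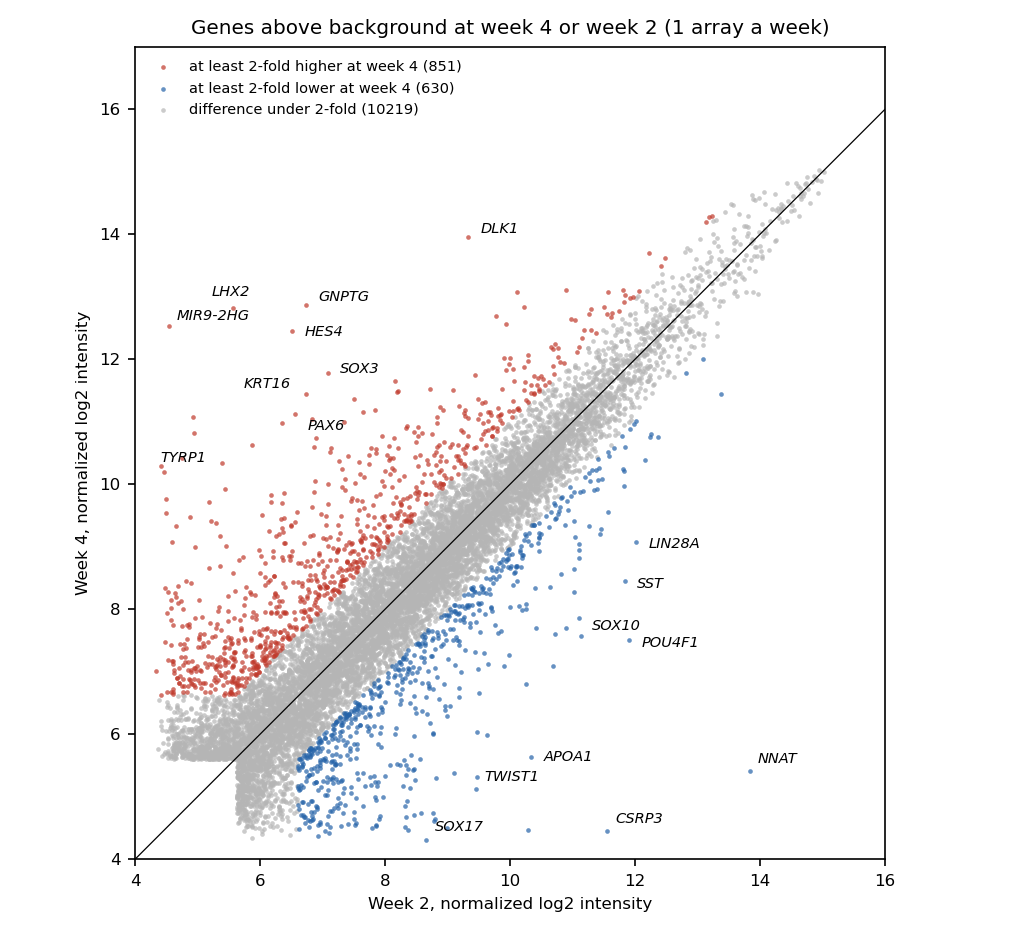
Normalized log2 intensity of the 11700 measured genes at week 4 (vertical axis) and week 2 (horizontal axis), 1 point a gene, with the diagonal marking equal values. The 851 higher genes lie above the diagonal, LHX2 and MIR9-2HG far from it, and the 630 lower genes lie below it, NNAT and CSRP3 far from it.

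Most measured transcription factors of the forebrain and the eye field were higher at week 4. Of 19 measured members of the forebrain and eye-field list, 15 were higher, NR2F1 was lower and 3 were not called, and the list median was 1.42 against -0.02 over all genes. Without background correction 10 of the 19 were called higher. This list belongs to the 43 whose members were chosen with earlier results of these data known. The counts of these lists describe the arrays and give no independent support. A further 8 members were below background at both weeks and 3 had no named probe. The LIM-homeodomain factor LHX2, which the optic vesicle needs, read 4.73, 5.56, 12.82, 11.66 and 11.71 at weeks 0, 2, 4, 6 and 8, below background on the first 2 arrays. Its week 4 reading was at least 147-fold above week 2, the largest bound upward. PAX6, the paired-box factor of eye and forebrain, read 4.95, 6.56, 11.13, 10.97 and 11.20 over the weeks and was 23.7-fold higher at week 4. The 2 further PAX6 probes split, with log2 differences of 4.11 and -0.14, each above background on both arrays. FEZF1, a forebrain zinc finger factor, read 4.42, 5.19, 9.72, 8.99 and 9.20, at least 17.0-fold higher at week 4. All 3 factors were low or below background at week 2 and stayed above background at weeks 6 and 8, LHX2 with a difference of -1.16 on the log2 scale at week 6 against week 4.

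SOX3 and EMX2 peaked on the week 4 array. SOX3, a neural progenitor factor of the SOXB1 group, read 9.73, 7.08, 11.78, 10.26 and 9.02 over the weeks and was 26.0-fold higher at week 4 than at week 2. EMX2, a factor of the dorsal forebrain, read 6.86, 6.86, 10.59, 8.80 and 8.46 and was 13.3-fold higher, and its other probe differed by at least 4.13 on the log2 scale. SP8, a zinc finger factor of the anterior neural ridge, was 6.99-fold higher at week 4, and its other probe moved by 2.87 on the log2 scale. The head-specifying homeobox genes OTX1 and OTX2 were 6.31-fold and 4.53-fold higher, and SIX3, a repressor that keeps the anterior neural plate anterior, 3.45-fold. SOX2, shared by stem cells and neural progenitors, read 12.06, 10.77, 12.19, 11.17 and 11.19 over the weeks, so that its 2.68-fold increase at week 4 returned it to about the week 0 reading. The remaining higher members were ZIC1, EMX1, SIX6, MEIS2 and LMO3, each between 2.01-fold and 2.31-fold, and EMX1 and SIX6 among them are bounds. SIX6 read 9.75, 4.57, 6.68, 7.69 and 8.13 over the weeks, so its week 4 reading lay below that of week 0. RAX, an early eye-field gene, came above background at week 4 at 6.42 against 4.56 at week 2, with a bound of 0.80 on the log2 scale that falls short of a call. NR2F1, which acts in the caudal part of the cortex, went the other way, at 9.33 at week 4 against 11.27 at week 2.

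Several other genes of cortical and ganglionic eminence neurons, the excitatory and inhibitory nerve cells of the forebrain, were higher and mostly transient. In a list added after values were seen, 13 of 20 measured members were higher and 2 were lower, with a median of 2.16, and since it was chosen for these genes its count supports nothing further. DLX1, a homeobox factor of inhibitory neuron precursors, read 5.06, 7.50, 11.36, 6.14 and 5.70 over the weeks and was 14.6-fold higher at week 4. NR2E1, a nuclear receptor that maintains neural stem cells, read 4.71, 4.59, 9.07, 6.14 and 6.39, at least 10.9-fold higher. DMRT3 and DMRTA1, doublesex-related factors of the cortical progenitor zone, were 8.65-fold and at least 10.4-fold higher. TBR1, a factor of early glutamatergic neurons, was at least 5.21-fold higher, and SLC32A1, which loads GABA into vesicles, at least 4.75-fold. DLX1, NR2E1, TBR1 and SLC32A1 all read lower again at weeks 6 and 8. BCL11A and BCL11B, zinc finger factors of cortical projection neurons, were 6.52-fold and at least 7.73-fold higher, and unlike the 4 genes before they stayed near their week 4 reading. GAD2, which makes GABA, and MEF2C were lower, by 2.14-fold and 2.40-fold.

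General neuronal genes moved in both directions. In the list of neuronal cytoskeleton and synapse genes 6 of 25 measured members were higher and 4 lower, with a median of 0.48. INSM1, a zinc finger factor of newborn neurons, read 4.41, 4.41, 10.29, 5.79 and 7.06 over the weeks and was at least 25.3-fold higher at week 4. The vesicle calcium sensor gene SYT1 was 4.99-fold higher, and the microtubule gene MAPT and the growth cone gene DPYSL3 2.79-fold and 2.78-fold, but the other MAPT probe was at -0.13 on the log2 scale. STMN4, a tubulin-binding protein gene, and SCG2, a granin of secretory granules, were each 3.88-fold higher. ONECUT1, ONECUT2, SYT4 and NHLH1 were lower, by at least 3.41-fold, 2.39-fold, 2.73-fold and 2.71-fold, and without background correction 1 list member was lower. STMN2, a growth-associated stathmin, was not called at a log2 difference of 0.55. Of 14 measured genes of radial glia, the stem cells of the developing brain, and of astroglia, 5 were higher and none lower, led by LIX1 at 4.93-fold and PTPRZ1 at 3.76-fold.

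The miR-9 hosts MIR9-1HG and MIR9-2HG were higher at week 4, and LIN28A and TRIM71 were lower. MIR9-2HG read 4.58, 4.54, 12.53, 9.80 and 10.10 over the weeks and was at least 120-fold higher at week 4 than at week 2. MIR9-1HG read 4.82, 4.93, 11.08, 9.43 and 10.17 and was at least 44.0-fold higher. Both of these hosts of the miR-9 sequence shown above were thus below background at weeks 0 and 2 and highest at week 4. MIR100HG, the let-7a, miR-100 and miR-125b host, read 4.76, 8.07, 10.38, 11.01 and 11.03 and was 4.99-fold higher at week 4, while MIR29B2CHG read 5.86, 5.76, 7.34, 6.30 and 5.93 and was 3.0-fold higher. MIR99AHG, which hosts another let-7 and miR-125 cluster, read 7.05 at week 4 against 7.07 at week 2 and was not called. LIN28A, the RNA-binding protein gene whose product blocks let-7 maturation, read 13.11, 12.02, 9.08, 5.95 and 4.40 over the weeks and was 7.71-fold lower at week 4 than at week 2. TRIM71, a let-7 target that keeps stem cells proliferating, read 10.74, 9.22, 7.0, 5.81 and 4.44 and was 4.67-fold lower. LIN28B, the paralog of LIN28A, fell short of a call at -0.70 on the log2 scale. LIN28A and TRIM71 read lower at each later week, whereas MIR9-1HG and MIR9-2HG were highest at week 4. The list of microRNA hosts was added after values were seen.

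Within the Notch pathway, by which a cell instructs its neighbour to stay a progenitor, the largest difference was in a repressor of the HES family. Of 17 measured members 5 were higher (29.4%), DLL1 was lower (5.88%) and 11 were not called, with a median of 0.35. Over all measured genes 7.27% were higher and 5.38% lower. That repressor, HES4, read 5.17, 6.51, 12.45, 9.50 and 10.21 over the weeks and was 61.1-fold higher at week 4. HES3 and HES2 were 3.19-fold and 2.36-fold higher, and HES5, the best-known neural effector, read 12.06 at week 4 against 11.76 at week 2 and was not called. LFNG, a glycosyltransferase that tunes Notch receptors, was 5.95-fold higher on its main probe, but its other probe differed by at least 0.14 on the log2 scale. The receptor gene NOTCH1 was 2.15-fold higher and the ligand gene DLL1 was 2.30-fold lower. The 250 bases before the RefSeq start of HES4, chr1:1000098-1000347 on the minus strand of GRCh38.p14, are printed because HES4 was the most changed member of the pathway. Capitals mark TGGGAA, the core site of the Notch cofactor RBPJ, searched on both strands and found once, 76 bases before the start.
HES4 promoter: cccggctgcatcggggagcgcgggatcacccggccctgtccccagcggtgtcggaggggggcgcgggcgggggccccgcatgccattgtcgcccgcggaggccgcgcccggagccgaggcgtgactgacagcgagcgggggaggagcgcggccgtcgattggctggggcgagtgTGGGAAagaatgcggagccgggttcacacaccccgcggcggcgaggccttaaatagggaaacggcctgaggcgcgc

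The same letters occurred in 19.1% of promoter windows of the higher genes, 21.8% of those of the lower genes, 19.3% of those of measured genes that were not called and 20.9% of all 35116 windows, so the match describes this window alone.

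**Figure D2:**
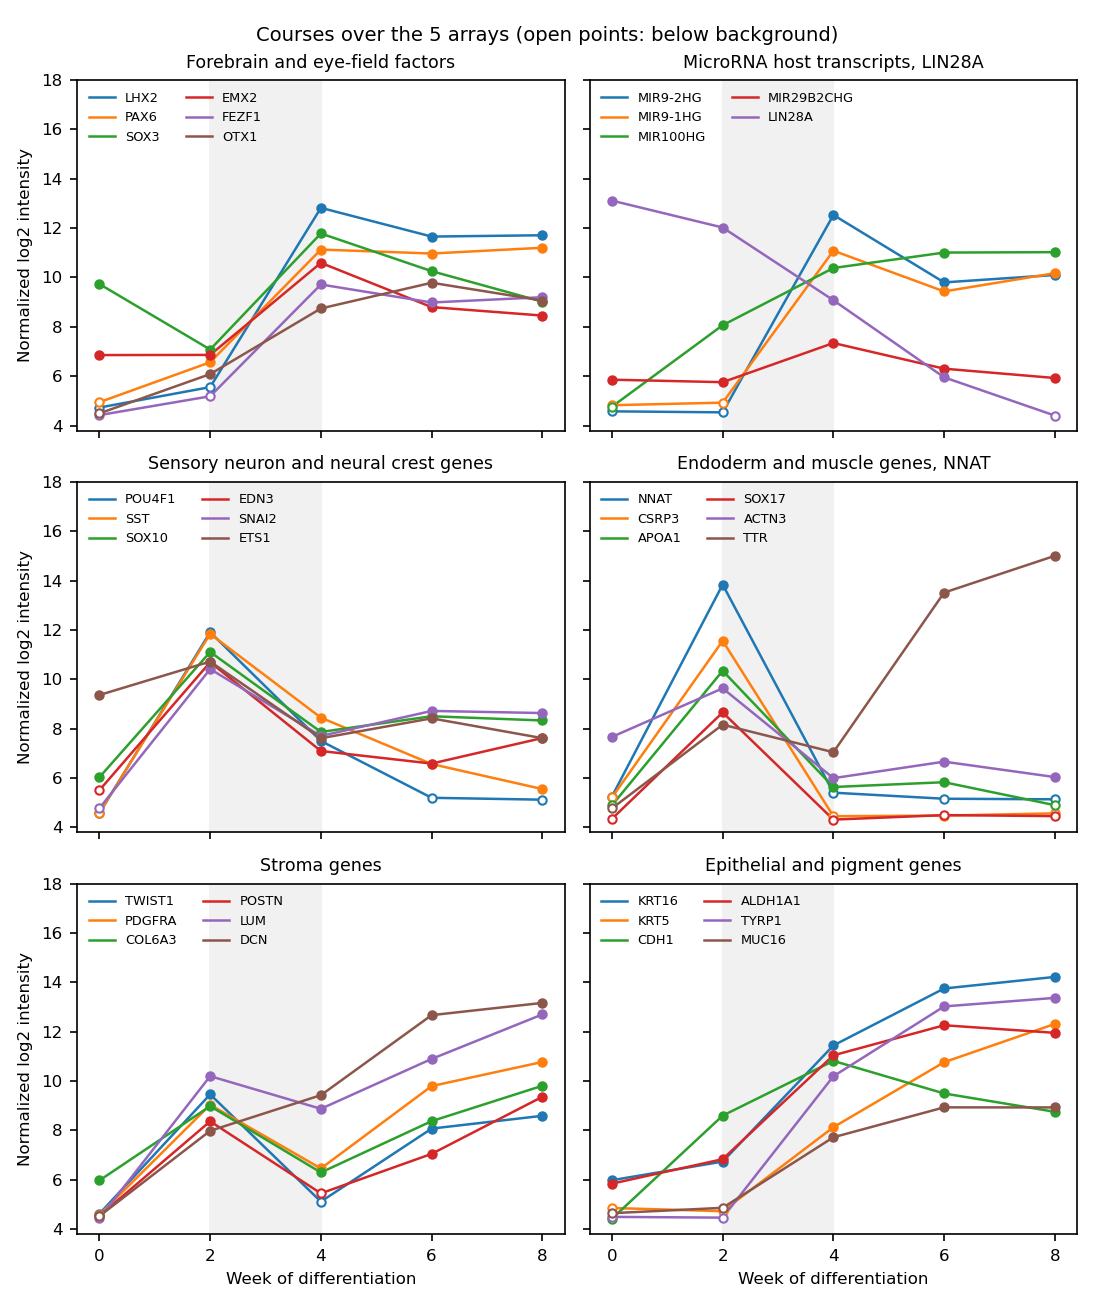
Normalized log2 intensity (vertical axis) of 35 transcripts at weeks 0, 2, 4, 6 and 8 (horizontal axis), 1 array a week, in 6 panels by group, with open points below background and the step from week 2 to week 4 shaded. LHX2, PAX6, MIR9-1HG and MIR9-2HG climb within the shaded step, and POU4F1, NNAT and CSRP3 drop within it. The stroma genes other than DCN dip at week 4, with higher readings again at week 8.

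Several genes of peripheral sensory neurons and their placodes, thickenings of the head ectoderm, were lower at week 4. Of 14 measured members 8 were lower and NEUROG2 was higher, with a median of -1.14, and 5 were lower without background correction or on the authors' processed intensities. POU4F1, a POU-homeodomain factor of sensory ganglia, read 4.58, 11.91, 7.50, 5.20 and 5.12 over the weeks and was 21.2-fold lower at week 4 than at week 2. POU4F2, its relative in retinal ganglion cells, was at least 6.27-fold lower. EYA1, EYA2 and SIX4, partners in placode formation, were 6.01-fold, 3.16-fold and 4.78-fold lower, and both other EYA1 probes fell as well, by 1.86 and at least 1.51 on the log2 scale. NEUROG1 and NEUROG2, proneural factors of different sensory lineages, parted. NEUROG1 read 7.45 at week 4 against 8.93 at week 2, 2.78-fold lower, and NEUROG2 read 10.74 against 8.14, 6.05-fold higher. NEUROG2 also works in the dorsal forebrain. TLX3 and PRPH were lower by at least 2.36-fold and 2.07-fold, and PRPH read higher again at weeks 6 and 8, at 10.15 and 11.32. ISL1 and POU4F3, further defining genes of these neurons, were below background on all 5 arrays, and DRGX had no named probe, so the sensory label rests on a part of its markers. SST, the somatostatin gene, peaked at week 2 as POU4F1 did, reading 4.59, 11.84, 8.44, 6.57 and 5.55, and was 10.5-fold lower at week 4.

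Genes of the neural crest were also among those lower at week 4. Of 14 measured members 8 were lower and SOX9 was higher, with a median of -1.48, and MSX1 and TFAP2A among the 8 also stand on the surface ectoderm list. SOX10, the factor of crest-derived glia and pigment cells, read 6.03, 11.11, 7.87, 8.50 and 8.33 over the weeks and was 9.45-fold lower at week 4. SNAI2, a repressor that lets crest cells leave the epithelium, read 4.78, 10.41, 7.70, 8.72 and 8.63, 6.54-fold lower, and its other probe fell by 2.37 on the log2 scale. ETS1, which crest cells use to migrate, and ERBB3, the neuregulin receptor of crest glia, were 8.61-fold and 5.77-fold lower. Another ETS1 probe, above background on both arrays, fell by less, at -1.17 on the log2 scale. CDH6, a cadherin of early crest, was 3.63-fold lower and PAX3, a crest specifier, at least 2.56-fold. SOX10, SNAI2 and ERBB3 kept a reading above background at week 4 and later weeks. EDN3, the ligand that crest-derived melanoblasts need, was 12.1-fold lower on its main probe, reading 7.09 at week 4 against 10.69 at week 2, and its other probe by at least 0.63 on the log2 scale. SOX9, shared by crest, glia and other progenitors, was 2.82-fold higher.

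Several stroma and fibroblast genes had their lowest reading after week 0 on the week 4 array. Of 23 measured members 9 were lower, DCN was higher and 13 were not called, with a median of -0.46. TWIST1, a factor of mesenchyme, read 4.62, 9.46, 5.12, 8.07 and 8.59 over the weeks, and it was below background at week 4 and at least 14.6-fold lower there. PDGFRA, the growth factor receptor of mesenchymal progenitors, read 4.58, 9.04, 6.46, 9.80 and 10.77 and was 5.98-fold lower, with its other probe at -2.5 on the log2 scale. COL6A3, a chain of microfibrillar collagen, read 5.97, 8.98, 6.29, 8.38 and 9.81 and was 6.45-fold lower, and its partner chain COL6A2 at least 6.70-fold on its main probe. Another COL6A2 probe, above background on both arrays, fell by less, at -1.09 on the log2 scale. The matricellular gene POSTN was at least 6.83-fold lower, and the corneal stroma proteoglycan gene LUM 2.5-fold. LUM and POSTN ended at their highest readings at week 8, 12.70 and 9.36. The proteoglycan gene DCN was 2.72-fold higher on its main probe, at 9.43 at week 4 against 7.98 at week 2, but another DCN probe above background on both arrays differed by -0.50 on the log2 scale. All 5 defining fibroblast markers that were tracked, COL1A1, COL3A1, DCN, LUM and PDGFRA, were above background at both weeks.

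Endoderm and apolipoprotein genes were called in the lower direction alone. Of 13 measured members 8 were lower, none higher and 5 not called, with a median of -1.44. Without background correction and on the authors' processed intensities, however, 3 of the 13 were lower. A member above background at week 2 alone could be called lower but not higher. Among the 8 members above background at both weeks 3 were lower and 0 higher, with a median of -0.84. APOA1, the main apolipoprotein of high-density lipoprotein, read 4.89, 10.34, 5.64, 5.83 and 4.90 over the weeks and was 26.1-fold lower at week 4, the largest decrease among genes measured on both arrays. APOA2, its companion, and SOX17, a defining endoderm factor, fell below background and were at least 9.14-fold and at least 8.35-fold lower. FOXA2, AFP and GATA4, further endoderm and liver genes, were below background at week 4 and at least 2.95-fold, 2.83-fold and 2.82-fold lower. Another FOXA2 probe fell by at least 4.84 on the log2 scale. APOC1 was 2.71-fold lower. Of 7 defining markers of visceral endoderm and liver, 2 were above background at week 4 against 6 at week 2. TTR, which carries thyroid hormone and is made by liver, choroid plexus and pigment epithelium, read 4.77, 8.16, 7.04, 13.51 and 15.00, so its 2.17-fold dip at week 4 came before its highest readings at weeks 6 and 8.

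Muscle genes were called in both directions. Of 22 measured members 5 were lower (22.7%), 3 higher (13.6%) and 14 not called, with a median of -0.20. Over all measured genes 5.38% were lower and 7.27% higher. Without background correction 3 members were lower and 2 higher. CSRP3, a LIM protein of the sarcomere, read 5.21, 11.56, 4.45, 4.48 and 4.57 over the weeks, so that week 2 was the single array above background, and it was at least 62.3-fold lower at week 4. ACTN3, the alpha-actinin of fast fibres, was 12.5-fold lower, reading 5.99 at week 4 against 9.63 at week 2. TNNC2 and TNNC1, troponin C genes of fast and of slow and cardiac muscle, were at least 7.33-fold and 2.44-fold lower, and MYL4, an embryonic myosin light chain gene, at least 3.06-fold. The higher members were TAGLN, an actin-binding protein of smooth muscle, at 4.09-fold, the tropomyosin gene TPM1 at 2.16-fold and the slow myosin gene MYH7 at no less than 2.61-fold. The other TAGLN probe moved the same way by 1.80 on the log2 scale as did the 3 other TPM1 probes, by 1.27, 1.06 and 0.79. ACTG2, the smooth muscle gamma-actin, which is not on the list, read 10.35 at week 4 and was below background at week 2, at least 26.4-fold higher.

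NNAT stood alone among imprinted genes, which are read from a single parental copy. NNAT, a small membrane protein gene of developing brain, read 5.25, 13.84, 5.40, 5.16 and 5.14 over the weeks and was at least 302-fold lower at week 4, the largest change of the step in either direction. A second NNAT probe followed it, falling by at least 3.13 on the log2 scale. BLCAP, the gene in whose intron NNAT lies, was 2.42-fold higher at week 4. In the imprinted list 6 of 20 measured members were higher, or 3 without background correction, and NNAT was the lower member, with a median of 0.20. DLK1, a membrane ligand of the Notch family, read 4.58, 9.32, 13.96, 12.07 and 13.01 and was 25.0-fold higher, but its other probe was dim and differed by -0.50 on the log2 scale. NDN and MAGEL2, neighbours that encode MAGE proteins, were 2.85-fold and 3.15-fold higher, and PLAGL1 and GRB10, a growth-restraining factor and adaptor, 2.70-fold and 2.23-fold.

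**Figure D3:**
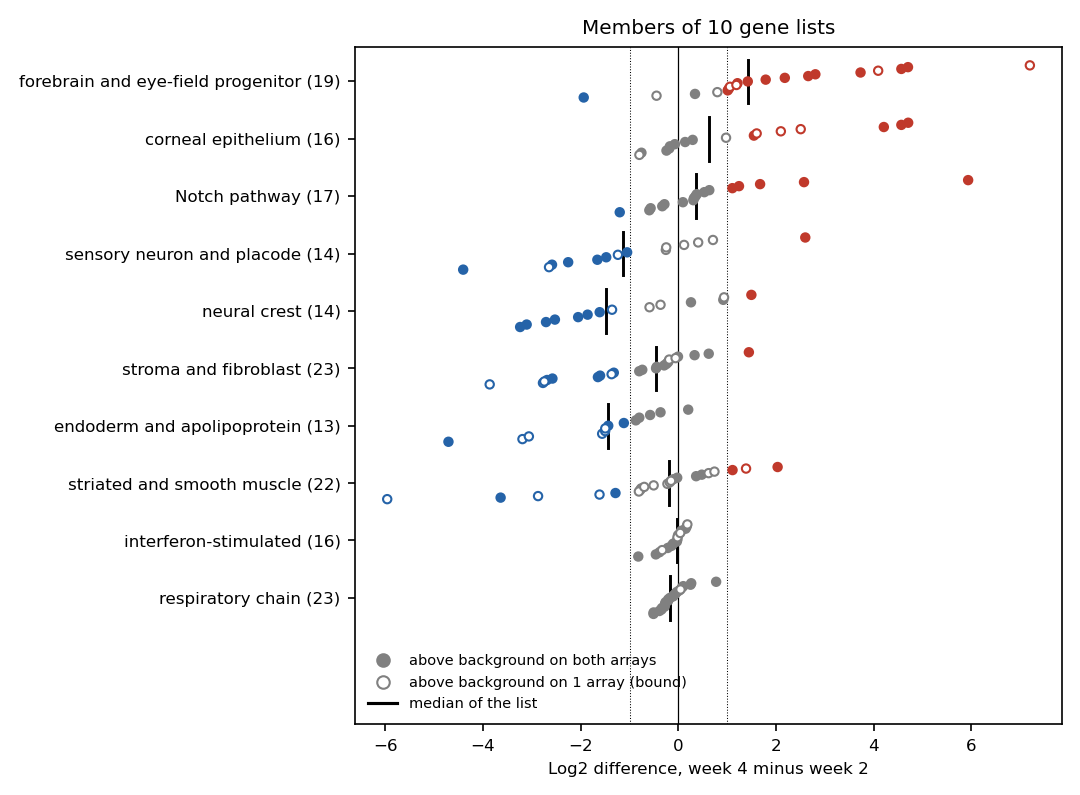
Log2 difference of week 4 minus week 2 (horizontal axis) for each measured member of 10 gene lists, 1 point a gene, with red for higher, blue for lower, grey for not called, open points for bounds and a bar at the list median. The forebrain and eye-field members lie mostly right of 0, with 15 called higher and NR2F1 called lower, and the endoderm, neural crest and sensory members lie mostly left of it.

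Part of the corneal epithelium genes appeared in this step, but not the keratins that define mature cornea. Of 16 measured members of the corneal list 7 were higher and none lower, with a median of 0.63. A further 14 were below background at both weeks. A member above background at week 4 alone could be called higher but not lower. Among the 11 members above background at both weeks 4 were higher and 0 lower, with a median of 0.14. Without background correction 5 of the 16 were higher, with a median of 0.24. Of 9 corneal markers with a named probe 4 were above background at week 4 against 2 at week 2. PAX6, which is also a forebrain and eye-field marker, was among them at both weeks. The array did not detect KRT3, KRT12, ALDH3A1 or ABCG2 at any week, and TP63 has no named probe. KRT16, a keratin of activated and stratified epithelium, read 5.98, 6.74, 11.44, 13.75 and 14.22 over the weeks and was 26.1-fold higher at week 4, with its other probe up by at least 1.19 on the log2 scale. KRT5, the basal layer keratin, read 4.86, 4.73, 8.13, 10.76 and 12.31 and was at least 5.68-fold higher. Its partner KRT14 came above background at 6.60 against 4.97 at week 2, where the bound of 0.98 on the log2 scale just missed a call. ALDH1A1, a retinaldehyde dehydrogenase and corneal crystallin, read 5.84, 6.84, 11.04, 12.26 and 11.95 and was 18.5-fold higher, and its other probe moved by 3.77 on the log2 scale. MUC16, a membrane mucin of the ocular surface, and KLF4, a factor of surface epithelium, were at least 4.28-fold and 3.04-fold higher on their main probes. Another KLF4 probe, above background on both arrays, differed by 0.62 on the log2 scale, short of a call. KRT16, KRT5 and KLF4 read higher still at weeks 6 and 8.

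Early surface ectoderm factors went the opposite way to these keratins. Of 13 measured members 5 were lower and 2 higher, with a median of -0.97. TFAP2A, an AP-2 factor of surface ectoderm and crest, read 4.66, 12.37, 10.75, 12.04 and 11.70 over the weeks and was 3.06-fold lower at week 4, with its other probe at -1.76 on the log2 scale. TFAP2B, MSX1 and PITX1 were 4.01-fold, 4.15-fold and at least 6.64-fold lower, and OVOL2, which holds epithelial state, 2.32-fold. The E-cadherin gene CDH1 read 4.42, 8.60, 10.82, 9.50 and 8.75 and was 4.65-fold higher at week 4, though stem cells are known to express it and its probe was below background at week 0. EPCAM, another epithelial adhesion gene, differed by -0.99 on the log2 scale and was not called. The junction lists are set beside the shares over all measured genes, 7.27% higher and 5.38% lower. Of 17 measured desmosome and hemidesmosome genes 2 were higher (11.8%), DSC2 at 3.44-fold and PPL at 2.07-fold, and 1 was lower (5.88%). Another DSC2 probe, above background on both arrays, differed by 0.65 on the log2 scale. Of 16 measured tight junction genes 1 was higher (6.25%) and 1 lower (6.25%), the lower being CGN at 4.85-fold. In the epidermal and conjunctival list 3 of 9 were higher, SFN at least 5.99-fold, SPRR3 at least 3.43-fold and MUC1 3.20-fold, and none lower.

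Some pigment and lens genes were first above background at week 4, while others were not. TYRP1, a melanosomal enzyme of pigment epithelium and melanocytes, read 4.50, 4.47, 10.19, 13.02 and 13.37 over the weeks and was at least 23.7-fold higher at week 4. TYR, which starts melanin synthesis, was above background at week 4 at 6.62 against 4.68 below background at week 2, and MITF, the pigment cell regulator, read 6.76 against 5.80, both under a call. Of the pigment epithelium markers 3 of 6 were above background at week 4 against 1 at week 2, and RPE65, BEST1 and RLBP1 were below background at both. The longer pigment epithelium list was split, with OTX2, SIX6, TRPM3 and CDH3 higher and TTR, TIMP3, STRA6 and ENPP2 lower among 13 measured members, and without background correction 1 was higher and 1 lower. MLANA, the melanocyte marker, was below background at weeks 2 and 4 and read 10.01 at week 6. In the melanin list 3 of 13 measured members were higher and 2 lower, the lower being SOX10 and KIT, and 1 of each without background correction. CRYAA, the alpha-crystallin of lens, read 5.54, 6.24, 8.26, 11.07 and 12.63. It was above background from week 2 and 4.06-fold higher at week 4. Of 5 lens markers 2 were above background at week 4 and 2 at week 2. CRYAB came above background at week 4, BFSP1 fell below it, and CRYBB2 and MIP were below at both. The lens list had 3 of 10 higher and none lower. The 250 bases before the RefSeq start of TYRP1, chr9:12693135-12693384 on the plus strand of GRCh38.p14, are printed because its probe, below background at week 2, read higher at week 4 by at least 23.7-fold. Capitals mark CATGTG, the E-box that MITF can bind, searched on both strands and found 144 and 11 bases before the start, the match nearest the start on the minus strand.
TYRP1 promoter: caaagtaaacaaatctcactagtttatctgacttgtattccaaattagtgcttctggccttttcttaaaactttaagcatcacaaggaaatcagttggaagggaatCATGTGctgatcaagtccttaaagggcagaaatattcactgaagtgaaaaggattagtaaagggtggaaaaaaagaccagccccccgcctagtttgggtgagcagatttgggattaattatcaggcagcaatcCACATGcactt

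CATGTG occurred in 8.21% of promoter windows of the higher genes, 8.59% of those of the lower genes, 6.29% of those of genes not called and 9.42% of all windows.

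**Figure D4:**
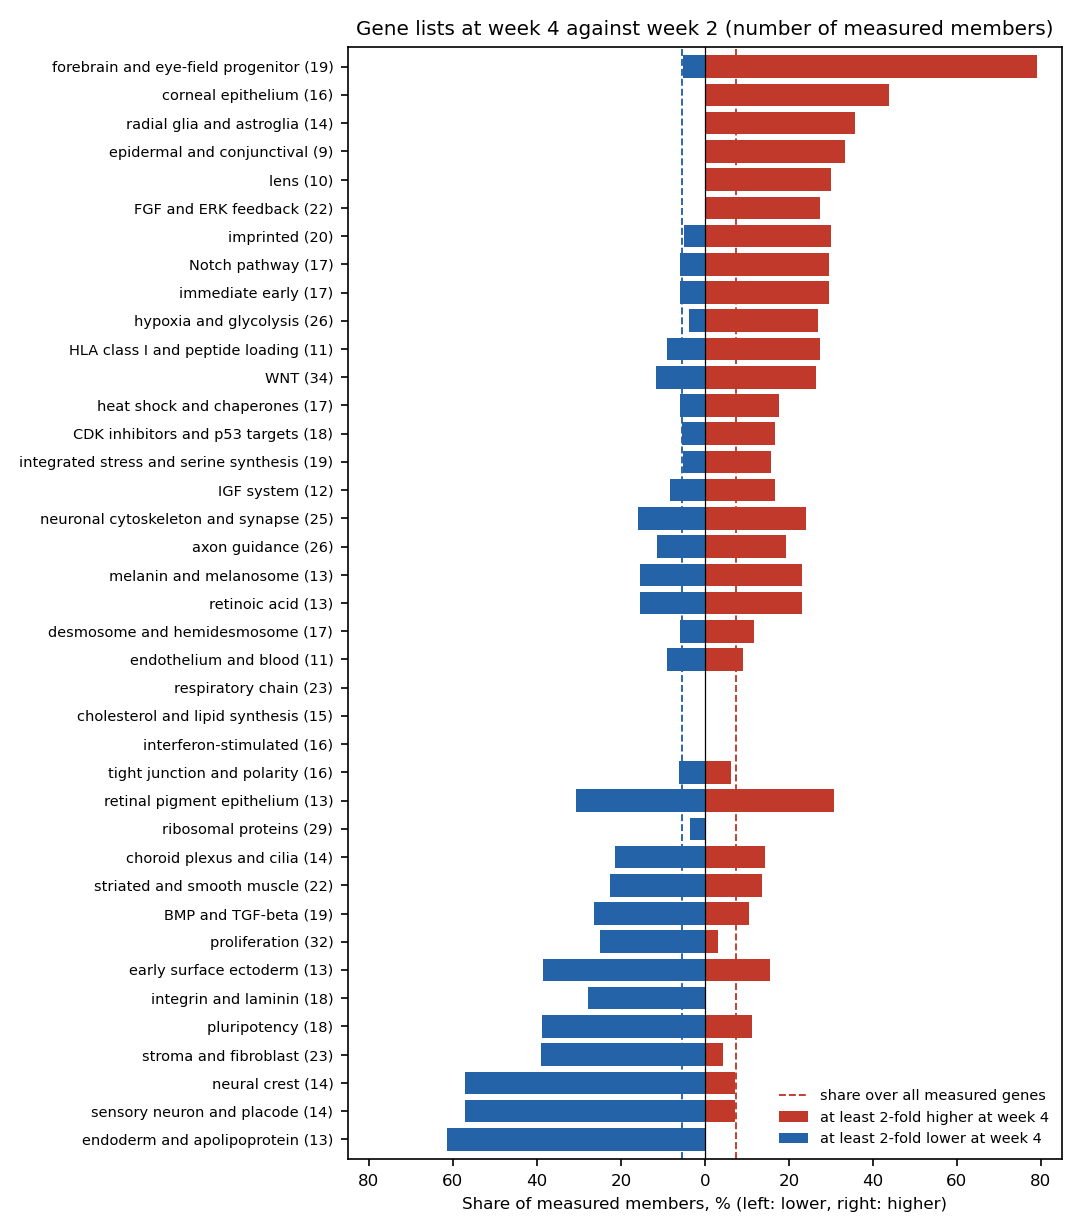
Share of measured members (horizontal axis, %) called higher (red, right) or lower (blue, left) at week 4 against week 2 for the gene lists with at least 9 measured members, given in brackets, and dashed lines at the shares over all measured genes, 7.27% and 5.38%. The forebrain and eye-field list has 78.9% of its members higher and the endoderm list 61.5% lower, and the respiratory chain, cholesterol and interferon lists have no called member.

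Secreted signals, their inhibitors and the enzymes of retinoic acid were among the called genes. Of 13 measured genes of the retinoic acid pathway 3 were higher, 2 lower and 8 not called, with a median of -0.11. The higher were the synthesis genes ALDH1A1 as above, RDH10 at 10.5-fold and ALDH1A3 at 7.33-fold. The breakdown enzyme gene CYP26C1 was 3.08-fold lower and the retinol uptake receptor gene STRA6 2.05-fold. Without background correction 3 were higher and 1 lower, and on the authors' processed intensities 3 and 0. RDH10, which makes retinaldehyde, read 7.04, 7.12, 10.52, 10.43 and 11.02 over the weeks. In the WNT list 9 of 34 measured members were higher and 4 lower, with a median of 0.51, and without background correction 5 and 3. Secreted WNT inhibitors SFRP2, DKK3 and SFRP1 were 6.14-fold, 2.66-fold and 2.29-fold higher, while the inhibitor DKK1 and the target gene SP5 were 3.16-fold and at least 6.98-fold lower. Ligand genes divided, with WNT5B at 5.63-fold higher, WNT2B at 3.24-fold higher and WNT3A at 4.53-fold lower. The WNT-enhancing genes RSPO2 and RSPO1 were 4.96-fold and 2.68-fold higher. In the FGF list 6 of 22 were higher, or 2 without background correction, and none lower, among the higher the ligand gene FGF8 of the anterior neural ridge at no less than 5.08-fold and the feedback inhibitor gene SPRY1 at 4.32-fold. Of 19 measured BMP and TGF-beta genes 5 were lower and 2 higher, or 3 and 1 without background correction. The ligand genes BMP5 and BMP2 were 5.67-fold and 3.36-fold lower, while the ligand gene BMP6 was at least 2.57-fold and the BMP target gene ID3 4.31-fold higher. The Hedgehog effector genes GLI1 and GLI2 were 2.06-fold and 2.95-fold higher among 7 measured members.

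Part of the pluripotency and mitotic genes were lower at week 4. In the pluripotency list 7 of 18 measured members were lower and 2 higher, with a median of -0.54, and without background correction 4 and 1. POU5F1, the core stem cell factor, read 11.42, 7.50, 4.76, 4.42 and 4.50 over the weeks, dropped below background at week 4 and was at least 3.73-fold lower. PODXL, a surface sialomucin of stem cells, and POLR3G, a stem cell subunit of RNA polymerase III, were 4.69-fold and at least 4.83-fold lower, though another POLR3G probe differed by -0.14 on the log2 scale. Among proliferation genes 8 of 32 were lower, or 4 without background correction, and E2F1 was higher. The 8 were MKI67, CCNB2, AURKA, CCNA2, AURKB, BUB1, CENPF and CDK1, genes of late cell cycle and mitosis, between 2.01-fold and 2.66-fold lower. CENPF among them was below background at week 4 and is a bound, at least 2.20-fold lower. Another CDK1 probe differed by -0.97 on the log2 scale, short of a call, and another AURKA probe by -1.45. MKI67, the proliferation antigen, read 7.0, 7.21, 5.80, 5.59 and 4.97. The replication helicase genes MCM2 to MCM7 were not called. E2F1, which switches on replication genes, read 9.72 at week 4 against 8.24 at week 2, 2.77-fold higher.

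Some lists of general cell functions held few or no called genes, and others held more. None of 23 measured respiratory chain genes, none of 15 genes of cholesterol and lipid synthesis and none of 16 interferon-stimulated genes was called, with medians of -0.17, 0.45 and -0.03, and 1 of 29 ribosomal protein genes, RPL14, was lower. Over all genes 7.27% were higher and 5.38% lower, and at these shares lists this small would hold few calls in any case. Of 17 heat shock and chaperone genes 3 were higher and 1 lower, or 1 and 0 without background correction. Of 19 integrated stress and serine synthesis genes 3 were higher and 1 lower, or 2 and 1 without background correction. Of the cell types the culture could hold, defining markers above background at week 4 and week 2 were 7 and 4 of 7 for forebrain and eye-field progenitors, 4 and 5 of 7 for sensory neurons, 2 and 5 of 7 for striated muscle and 1 and 3 of 4 for undifferentiated stem cells. They were 3 and 2 of 4 for endothelium, 1 and 0 of 4 for blood, and 1 and 1 of 5 for amnion and trophoblast, where GABRP, ISL1, CGA and GATA3 were below background on all 5 arrays. What part the shares of these cell types had in the differences was not tested.

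Where a gene had another probe, the probes often gave different sizes. Of 1481 called genes 335 had another probe above background at week 4 or week 2, and 272 of these (81.2%) moved in the same direction on it while 151 (45.1%) were also called the same way. By direction, 91 of 205 higher genes and 60 of 130 lower genes were called on the other probe as well. CORO2A, FIGNL2, GRM3 and ZNF876P were called in opposite directions by their 2 probes, so that CORO2A, among the 20 largest decreases at -2.73 on the log2 scale, was at 1.91 on its other probe. For the other 1146 called genes a single named probe carries the call, as for LHX2, HES4, GNPTG, SOX3 and both miR-9 hosts.

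**Figure D5:**
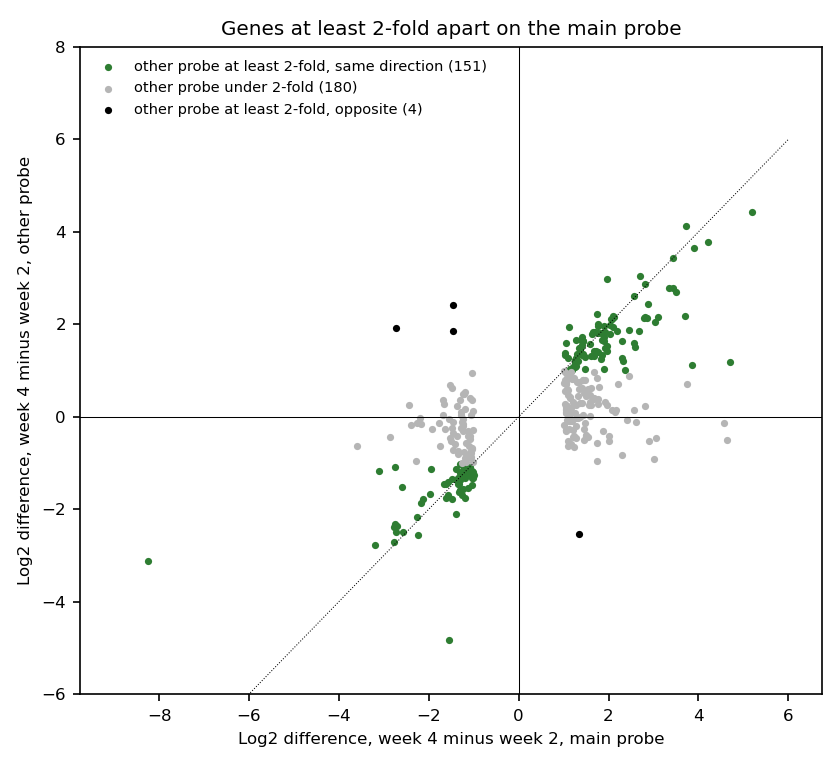
Log2 difference of week 4 minus week 2 on the main probe (horizontal axis) and on another probe of the same gene (vertical axis) for 335 called genes, 1 point a gene, with the dotted line marking equal values. In all 151 genes are also called the same way on the other probe (green), 180 are under 2-fold on it (grey) and 4 are called the opposite way (black).

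The last step of the course, week 8 against week 6, shares no array with this one and was set beside it. Over 10987 genes measured in both, the Pearson correlation of the differences across genes was -0.07, a description of 4 arrays of 1 chip in which genes are not replicates. Of 839 genes higher at week 4 than at week 2, 20 (2.38%) were higher and 20 (2.38%) lower at week 8 than at week 6, which is 13.2% of the 151 higher and 15.7% of the 127 lower genes of the last step. Of 541 genes lower at week 4, 31 (5.73%) were higher and 27 (4.99%) lower in the last step, or 20.5% and 21.3% of that step's calls. Over all genes measured in both steps 1.37% were higher and 1.16% lower in the last step.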

How the data were processed

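The 5 Illumina HT-12 arrays lay on 1 chip and took total RNA of H9 cells, 1 colour each, at weeks 0, 2, 4, 6 and 8, and weeks 4 and 2 are compared. Per the labels' protocols, Trizol-extracted RNA was purified with a DNase I step and converted to biotinylated cRNA. Scanner software and the making of the processed table are not given in the sources used here.

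Each probe's mean bead intensity before normalization is what the deposited table holds, as linear values. Per the file headers, a detection fraction between 0 and 1 stands beside it, and since it grows with the signal its complement to 1 was taken as the detection p-value. The authors' processed intensity, deposited in another table, was used as an alternative.

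Signals were background corrected, given an offset of 16, quantile normalized over the 5 arrays and turned into log2 values with neqc of limma 3.58.1 in R 4.3.3. Later steps used Python 3.11.15, pandas 2.3.3 and numpy 2.4.6. Of 47317 probes 30110 had 1 gene symbol, 8 several and 17199 were not listed, and symbols were updated through Entrez identifiers for 30071. Each gene is represented by its probe of highest mean among those above background (detection p-value under 0.01) on any array. Readings under background were raised to the array's floor, its lowest reading above background, wherever they fell short of it. XIST, TSIX and Y-linked genes were left out.

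With 1 array a week no test was run, and the number of arrays limits the precision. Named are the 20 largest increases and decreases measured on both arrays, the 12 top bounds in each direction, at most 8 members a list by size, and the cell type markers, as far as the text has use for them. Any further gene in the text was picked with its values in view. The members and the 43 gene lists were chosen with earlier results of these data known, and 5 further lists were added after values were seen.

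The steps were tested on simulated arrays of 17895 probes for week 4 against week 2, with log2 noise set to an SD of 0.1. All 50 probes raised 4-fold, 50 of 50 raised 2.5-fold, 45 of 50 lowered 2.5-fold and 50 of 50 lowered 4-fold were called, as were 0 of 17695 unchanged probes. These shares check the steps and give no error rate for the real arrays. The alternatives left out background correction, scaled arrays to a common 75th percentile, or used an offset of 50, a detection limit of 0.05, genes above background at weeks 2 and 4 or on all 5 arrays, averaged probes, weeks 2 and 4 normalized alone, the authors' processed intensities and a 4-fold call. Promoter windows and microRNA sequences came from RefSeq on GRCh38.p14.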

Additional observations from a re-analysis of the deposited data

Results flagged for a closer look

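Probes that the platform annotation does not list entered none of the comparisons and were counted because they carried signal. Of these unnamed probes 3990 were above background at week 4 or week 2. By the same 2-fold call, 212 of them (5.31%) were higher at week 4 and 200 (5.01%) lower, against 7.27% and 5.38% of the named genes.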

How the results depend on the processing

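The counts of 851 higher and 630 lower genes moved by over 1.5 times under 5 settings: to 401 and 219 without background correction, 420 and 238 on the authors' processed intensities, 511 and 368 with genes above background on all 5 arrays, 203 and 113 for a 4-fold call, and, for the lower genes, 414 with an offset of 50. They were 754 and 720 with scaling to a common 75th percentile, which also moved the median of all genes to -0.10 and the higher share of calls to 51.2%, against 57.5%. No named gene was called in the opposite direction. The median changed sign under some alternative in 14 of 48 lists, the corneal list among them, with -0.07 against 0.63 when genes had to be above background on all 5 arrays. Of 266 named called genes, 165 stayed called under every alternative that could be run for them other than the 4-fold call, which 125 of the 266 passed. Losses were 88 genes without background correction, 84 on the authors' intensities, 37 with the offset of 50, 15 with the mean of probes, 10 with scaling and 1 with weeks 2 and 4 normalized alone, and the cause was not tested. Genes below background at a week drop out of the stricter filters by construction. No paired analysis was possible because each week has 1 array and the labels give no replicate numbers, and no array could be left out. Readings below background give bounds alone.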

Other observations

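Some small structured RNAs were lower at week 4. In a list added after values were seen, 6 of 15 measured members were lower, none higher and 9 not called, and 3 were lower without background correction. The list median was -0.33, against 0.24 over the members above background at both weeks. RNU4-2 and RNU4-1, copies of the U4 RNA of the spliceosome whose near-identical sequences the array may not tell apart, read 5.67 and 6.18 at week 4 against 8.42 and 8.72 at week 2. RNU4-2 read 8.08, 8.42, 5.67, 8.21 and 7.26 over weeks 0, 2, 4, 6 and 8, so week 4 was its lowest. SNORD3A, the U3 RNA of ribosome assembly, read 9.39, 8.59, 6.37, 7.79 and 7.41 and was 4.66-fold lower. GNPTG, a subunit of the enzyme that tags lysosomal proteins, was the largest increase measured on both arrays and the opposite case, reading 7.11, 6.73, 12.87, 7.19 and 6.50 on a single probe, 70.3-fold higher at week 4. Metallothioneins, zinc and copper buffers, were lower in 4 of 5 measured members, by at least 3.21-fold for MT1F, 2.36-fold for MT1E, at least 2.25-fold for MT1G and at least 2.05-fold for MT2A, but 0 of 5 were called without background correction or on the authors' processed intensities, and 1 of 5 with an offset of 50.

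Neuropeptide genes were called in both directions, with 4 higher, 4 lower and 9 not called and a median of 0.06. EDN3, SST, NTS and PDYN were lower, NTS by at least 7.40-fold and PDYN by 5.47-fold, and TRH, TAC3, VGF and PCSK1N were higher, TRH by at least 13.8-fold, TAC3 by 7.80-fold and VGF by 6.63-fold, among 17 measured members of a list added after values were seen. In a dopamine list also added after values were seen, 4 of 11 measured members were higher and 2 lower, with a median of 0.03, or 3 and 0 without background correction. TH, the rate-limiting enzyme of dopamine synthesis, read 4.40, 4.50, 9.53, 9.13 and 9.65 and was higher at week 4 by at least 15.0-fold. The receptor genes DRD3 and DRD1 were 24.8-fold and 3.49-fold higher, while the dopamine transporter gene SLC6A3 was at least 2.02-fold lower. DRD3 has 3 named probes, and none but its main probe was above background at week 4 or week 2. Glucose uptake and glycolysis genes were higher in part: the glucose transporter gene SLC2A1 read 13.11 at week 4 against 10.89 at week 2, and 7 of 26 measured members of the hypoxia and glycolysis list were higher and P4HA2 lower. Of the axon guidance genes 5 of 26 were higher, SLIT2 by 5.98-fold, and 3 lower, NTN1 by 3.59-fold, or 3 and 1 without background correction. In the HLA class I list TAP1, TAPBP and ERAP2 were higher, TAP1 by at least 4.41-fold, though 0 were called higher without background correction, and HLA-C was 3.78-fold lower on its main probe, while no interferon-stimulated gene was called.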
